A study of Mus musculus with 2 samples.

Results

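The genes described here are the nuclear subunits and assembly factors of respiratory complex I in mouse cortex. They were chosen by gene symbol: Nduf followed by a, ab, b, c, s or v and a number, or Ndufaf and a number, with symbols that hold -ps left out. The rule found 49 of the 55450 genes that carried a symbol, of which 46 are annotated as protein coding and 3 as processed pseudogenes (copies of a spliced RNA put back into the genome). RNA with poly(A) tails came from left cerebral cortex of adult mice of strain B6NCrl, a C57BL/6 substrain, at 6 months of age and from 20 ng of RNA per library. There was 1 group of 2 libraries, called replicate 1 and replicate 2, with no genotype, treatment or second tissue to compare. The labels give each library its own biosample but name 1 donor entry for both. Only the numbering as biological replicates speaks for separate animals, and every spread given here may be technical. One label field called the tissue male and another gave the sex as not collected.

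Complex I, the NADH:ubiquinone oxidoreductase, is the entry point of electrons into the respiratory chain of the inner mitochondrial membrane. A matrix arm takes electrons from NADH and passes them along iron-sulfur clusters to ubiquinone, and a membrane arm pumps protons. The enzyme has a catalytic core of nuclear and mitochondrially encoded subunits, a shell of accessory subunits around it, and a set of assembly factors that build it and are not part of the finished enzyme. In neurons, respiration supplies much of the ATP for ion pumping and synaptic release.

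Estimated counts in the gene tables summed to 51888490 fragments for replicate 1 and 26776276 for replicate 2. Of these the 49 genes took 511435 (0.986%) and 306186 (1.14%). A second transcript table, a separate quantification of the same reads, summed to 76100574 and 46367538. Levels are in TPM (transcript abundance scaled for length and depth, which can be set side by side between genes), given as the value in replicate 1, then in replicate 2, or as mean ± SD over n = 2 libraries. The mean length of the sequenced fragments, read from the effective lengths of transcripts of at least 2000 bases, was 164.5 bases in replicate 1 and 124.2 in replicate 2 in the first tables. It was 133.9 and 98.3 bases in the second transcript table. Markers of neurons, astrocytes, oligodendrocytes and microglia were all detected, with list medians of 386 ± 12 TPM for 6 pan-neuronal, 144 ± 27.4 for 6 astrocyte, 241 ± 8.41 for 6 oligodendrocyte and 47 ± 1.18 for 6 microglia genes. In such bulk tissue, fewer cells of a type and less RNA per cell cannot be told apart.

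A gene counted as detected at 1 TPM or more in both libraries. That held for 47 of the 49 genes (95.9%), beside 12448 of 22028 protein coding genes (56.5%). All 36 structural subunits and all 8 Nduf-named assembly factors were detected. The genes lay on 17 chromosomes, with Ndufa1 and Ndufb11 on X. Both genes below 1 TPM were processed pseudogenes. Ndufs6b had 0 and 1 counts. Ndufa11b had 0 and 0 counts in the gene tables, which allows up to 0.0578 and 0.112 CPM (counts scaled to library size; 3 counts of each library, for counting error only), and 0.844 and 1.69 TPM in the second transcript table, a separate quantification of the same reads.

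The 7 nuclear core subunits carry the redox chemistry, and values are given for 6 of them. Ndufs7, which holds the last iron-sulfur cluster before ubiquinone, was the highest at 640 and 783 TPM. Ndufs8, a further iron-sulfur subunit on that path, had 461 and 481 TPM. The ranges of this pair did not overlap.

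Next came a group of 3 core genes with overlapping library ranges. Ndufs3, a core subunit of the quinone-binding module, had 347.5 and 411 TPM. Ndufv2, a subunit with an iron-sulfur cluster beside the NADH site, had 358 and 383 TPM. Ndufv1, which binds NADH and the flavin FMN, had 319 and 421 TPM. All 3 were higher in replicate 2 in TPM, while in CPM Ndufv2 had 291 and 285.

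The core gene with the lowest mean was Ndufs1, the iron-sulfur subunit with several clusters in the matrix arm, with 94.7 and 122 TPM. The median of the core, over all 7, was 379 ± 45.1 TPM, with 348 in replicate 1 and 411 in replicate 2.

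**Figure D1:**
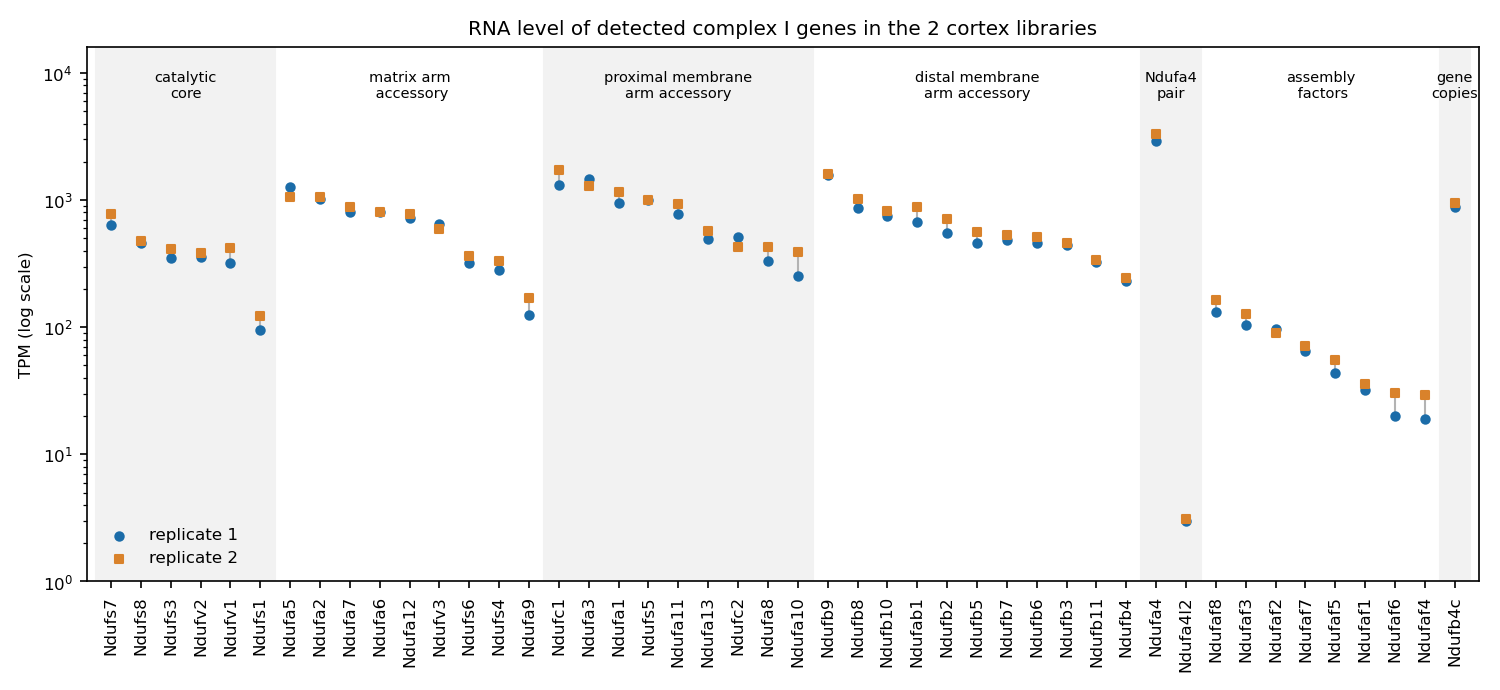
TPM of 46 of the 47 detected complex I genes (log axis), grouped by role, with a circle for replicate 1, a square for replicate 2 and a line joining them. The structural subunits have means from 108 to 1585 TPM, the assembly factors lie lower, and Ndufa4 and Ndufa4l2 mark the top and bottom.

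Accessory subunits of the matrix arm had a higher median, 751 ± 37.1 TPM over 9 genes. Ndufa5, an accessory subunit bound to the peripheral arm, led with 1269 and 1057 TPM, and Ndufa2, which has a thioredoxin-like fold, followed with 1029 and 1050. The pair overlapped in range. Ndufa9, a short-chain dehydrogenase-like protein that holds a bound NADPH, was the lowest at 124 and 168 TPM. Ndufs4, a subunit whose loss in mice gives a Leigh-like brain disease, had 284 and 329 TPM, and Ndufs6, a zinc-binding subunit, had 321 and 366.

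The proximal part of the membrane arm, next to the matrix arm, had the highest median of the 4 structural groups, 857 ± 106 TPM over 9 genes. Ndufc1, a small single-span membrane subunit, had 1305 and 1732 TPM, and Ndufa3, a further small membrane subunit, had 1471 and 1289. The first was higher in replicate 2 and the second in replicate 1, so their ranges overlapped. Ndufa10, a subunit with a nucleoside kinase fold, was the lowest at 252 and 393.5 TPM, and its SD, 31% of its mean, was among the widest of the detected genes. Ndufa1, an X-linked membrane subunit, had 944 and 1160.0 TPM.

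The distal membrane arm had a median of 523 ± 51.8 TPM over 11 genes. Ndufb9, a protein of the LYR family, was the highest structural subunit of all at 1573 and 1597 TPM, a difference of 1.09% (SD as a percent of the mean). Ndufb8, a single-span membrane subunit, had 871 and 1026 TPM. Ndufb4 was listed lowest at 232 and 242 TPM, but it shares its coding sequence with a second locus, described further on. Ndufab1, the mitochondrial acyl carrier protein, which serves fatty acid and iron-sulfur cluster synthesis as well as complex I, had 678 and 877 TPM.

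Across the 36 structural subunits the mean level spanned 14.6-fold, from Ndufb9 at 1585 TPM to Ndufs1 at 108. Of these, 7 stood at 1000 TPM or more (Ndufb9, Ndufc1, Ndufa3, Ndufa5, Ndufa1, Ndufa2 and Ndufs5), while Ndufs1 and Ndufa9 were below 200. The proteins are present in equal numbers in the enzyme, apart from the acyl carrier protein Ndufab1, which occurs in more than 1 copy, whereas the RNA levels per length were not equal. The order was alike in the 2 libraries (Spearman rho 0.977 across 36 genes, which share the libraries). The level was inversely related to the length of the RNA: rho between mean TPM and annotated length was -0.780, and -0.799 in the second transcript table. Without the division by length the relation was near 0, with rho of -0.034 between CPM and length. Over all 13462 tested protein coding genes rho of TPM and length was -0.409. The 4 structural groups were closer in counts, with median CPM of 250 for the core, 239 for the matrix arm, 262 for the proximal and 208 for the distal arm accessories, at median lengths of 1169, 572, 542 and 704 bases. The assembly factors stayed lower on that scale too, at a median of 38.3 CPM and 1095 bases.

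Placed in order of mean level, the 49 genes gave 48 neighbouring pairs, and the library ranges overlapped in 34 of them. The 14 steps beyond the library spread included that from Ndufa4 to Ndufb9, from Ndufa3 to Ndufa5, from Ndufv3 to Ndufa13, from Ndufs4 to Ndufb4 and from Ndufaf4 to Ndufa4l2. The SD was 9.52% of the mean at the median of the 47 detected genes, from 0.0175% for Ndufa6 to 31.2% for Ndufaf4. In TPM, 41 of the 47 were higher in replicate 2 and 6 were lower. In CPM, 32 were higher and 15 lower. No share over all genes is set beside these counts, so they are not read as a trait of complex I.

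Ndufa4 was first described as a complex I subunit and is now placed in complex IV, and it had the highest level of all 49 genes at 2929 and 3309 TPM. Its mean, 3119 ± 269 TPM, was nearer to the median of 10 complex IV subunits, 2260.1 ± 120, than to that of the 36 complex I structural subunits, 535 ± 41.9. The same held for the complex I subunits Ndufb9 at 1585 TPM and Ndufc1 at 1519, so the level does not tell the complexes apart. Ndufa4l2, a relative of Ndufa4 known as a hypoxia-induced gene and as abundant in brain pericytes, had 2.97 and 3.08 TPM from 92 and 51 counts. Of 6 mural cell markers 5 were detected, with a summed level of 68.2 and 70.9 TPM, and Abcc9 was the lowest at 0.98 TPM. The part of mural cells in the level of Ndufa4l2 was not tested.

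The 8 assembly factors named Nduf had a median of 59 ± 6.13 TPM. Ndufaf8, the partner of Ndufaf5, was highest at 131 and 165 TPM, and Ndufaf3, which acts early on the quinone-binding module together with Ndufaf4, followed at 104 and 127. Ndufaf4 itself had the lowest mean, at 18.8 and 29.5 TPM, but its range overlapped that of Ndufaf6, with 20.15 and 30.45. In counts Ndufaf6 was lower, with 587 and 396 beside 1496 and 933 for Ndufaf4. The library ranges of Ndufaf3 and Ndufaf4 did not overlap, and the mean of Ndufaf3, 115 TPM, stood above that of Ndufaf4, 24.2. Ndufaf5, which hydroxylates an arginine of Ndufs7, had 43.9 and 55.4 TPM, Ndufaf7, a methyltransferase that acts in complex I assembly, had 65.5 and 71.3, and Ndufaf2, a late-acting factor, had 96.2 and 89.5. For other known complex I assembly factors 14 symbols were listed, which need not stand for 14 separate genes. Of these symbols 11 were found and all 11 were detected, with a median of 35.1 ± 0.919 TPM. They ran from Tmem70, a membrane-arm assembly factor, at 81.8 ± 5.3 TPM to Nubpl, an iron-sulfur cluster carrier for complex I, at 2.99 ± 0.0566.

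Among the other respiratory complexes, the nuclear subunits had medians of 190 ± 56.8 TPM for complex II (4 genes), 723 ± 46.3 for complex III (9), 2260.1 ± 120 for complex IV (10) and 987 ± 95.2 for ATP synthase (16). The complex I structural median of 535 ± 41.9 lay above that of complex II and below those of complexes III, IV and ATP synthase, in each library. In CPM, which is not divided by length, the order was the same but the medians were closer. They were 238 and 251 CPM for complex I, 197 and 242 for complex II and 269 and 285 for complex III. ATP synthase had 404 and 429, and complex IV 718 and 723. The part of RNA length in these medians was not tested. The 7 mitochondrially encoded complex I subunits, which form the proton-pumping core of the membrane arm, had a median of 933 and 1525.7 TPM. The highest was mt-Nd1 at 9945 and 6395. Of the 7, 6 were detected, and mt-Nd4l had 285 and 0 counts. Known regulators of mitochondrial gene expression were far lower: 7 such genes, Ppargc1a and Nrf1 among them, had a median of 5.59 ± 1.12 TPM.

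**Figure D2:**
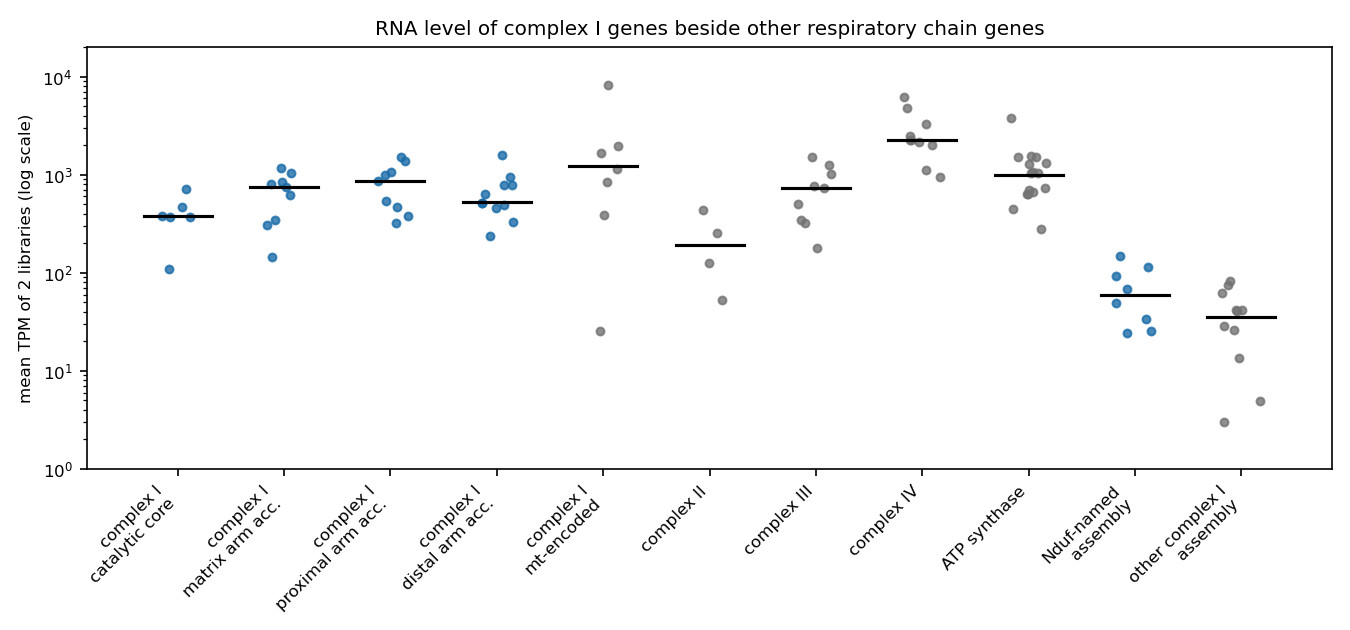
Mean TPM over the 2 libraries (log axis) of each gene in the complex I role groups (blue, 1 core gene not drawn) and in the lists set beside them (grey), with a bar at each median. The nuclear complex IV genes have the highest nuclear median, 2260.1 TPM, and both assembly factor lists lie under 100 TPM at the median.

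The difference between the libraries was measured on counts: the ratio of replicate 2 over replicate 1 at TMM-scaled library sizes, with a 95% Clopper-Pearson interval that covers counting error only. A gene was called apart at 1.5-fold or more with an interval that left out 1, among genes with a mean of at least 1 CPM. Over all 14656 such genes 22.7% were called, 4.32% as higher and 18.4% as lower in replicate 2. Among the 47 complex I genes tested, 1 was called (2.13%), and 46 were not. The median log2 ratio of the 47 was 0.09, against -0.04 for all tested genes, and 38 of the 47 (80.9%) lay within 1.2-fold, against 49.5% of all.

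Most complex I genes are abundant, so the same values were taken at 100 CPM or more. There, 29 of 38 complex I genes (76.3%) lay within 1.2-fold, beside 58.7% of the 2003 tested genes at that level, of which 16.3% were called. Of the 39 nuclear subunits of complexes II to V, 34 lay within 1.2-fold and 1 was called. Of the 7 mitochondrially encoded complex I subunits, 1 was called as higher and 2 as lower in replicate 2. Small differences were still beyond counting error in most of the 47: the interval left out 1 for 35, as it did for 65% of all tested genes. Among the 47 the highest ratio was that of Ndufb2, an accessory subunit of the distal arm, with 8048 and 5975 counts and a log2 ratio of 0.40 (0.35 to 0.44).

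**Figure D3:**
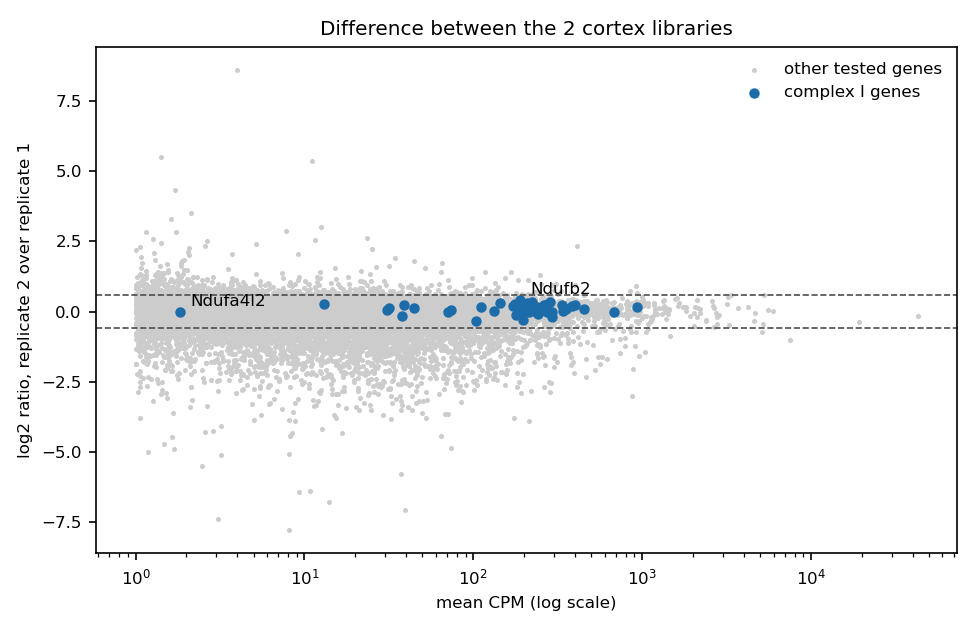
Log2 ratio of replicate 2 over replicate 1 against mean CPM (log axis) for tested genes, with 46 of the complex I genes in blue and dashed lines at 1.5-fold (21 genes with 0 counts in a library are not drawn). All 46 drawn lie between the dashed lines, and Ndufb2 is the highest at 0.40.

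In the first transcript table, transcripts of 1 gene could differ in their ratios where the gene totals were not called apart. These counts are estimates, and the intervals do not cover error in assigning reads among transcripts. Ndufc1-201 (protein coding, 1249 bases) had 2548 and 417 counts, a log2 ratio of -1.79 (-1.94 to -1.64), while Ndufc1-203, a retained intron transcript of 311 bases, had 2482 and 2532 counts, a ratio of 0.85 (0.77 to 0.94). Ndufab1-203 (protein coding, 1416 bases) had -1.06 (-1.18 to -0.94), and Ndufab1-205 (retained intron, 397 bases) had 0.64 (0.56 to 0.73). For Ndufa10 the coding transcript Ndufa10-201 (2020 bases) had -0.06 (-0.12 to 0.00) and the retained intron transcript Ndufa10-204 (715 bases) had 0.83 (0.74 to 0.92). The second transcript table gave Ndufc1-201 2296.5 and 547 counts. For Ndufa9-201 the tables were far apart, with 24 and 408 counts in the first and 1394.4 and 753 in the second. These transcripts were chosen after their values were seen.

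In the first transcript table, 126 transcripts of the coding members had 1 CPM or more. Of these, 16 of 21 retained intron transcripts were higher in replicate 2, with a median log2 ratio of 0.64 and a median length of 553 bases. The lowest ratio of the 126 was also that of a retained intron transcript, Ndufb8-202 at -2.44, with 125 and 13 counts. The second transcript table gave it 31.9 and 57.5 counts. Ndufb4-202 had 0.83 in the first table, but 1110.9 and 671 counts in the second. Over all protein coding genes, 1088 of 2129 retained intron transcripts (51.1%) were higher, with a median of 0.02 and 1453 bases. The 63 coding transcripts of members under 1200 bases had a median of 0.10, and the 23 of that length or more had -0.02. Over all genes these medians were 0.04 and -0.09. Transcripts of 1 gene share its reads, so that they are not independent. Replicate 2 also had the shorter fragments and the lower depth, and the part of either in these ratios was not tested.

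**Figure D4:**
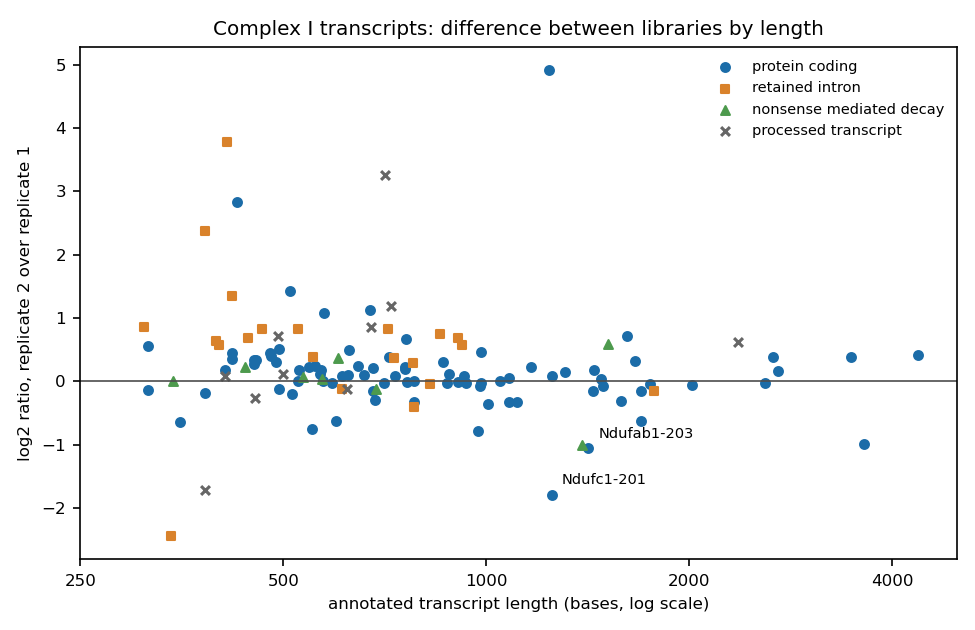
Log2 ratio of replicate 2 over replicate 1 against annotated length (log axis) for 124 of the 126 transcripts of coding complex I genes at 1 CPM or more, by annotated type. Most retained intron transcripts (orange squares, 16 of 21) lie above 0, and Ndufc1-201 and Ndufab1-203 lie below -1. The lowest point is the retained intron transcript Ndufb8-202 at -2.44, and the highest the coding Ndufa9-201 at 4.91. Counts are those of the first transcript table.

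Which transcripts carried these levels was read from the share of each gene's TPM per transcript, for the 39 coding members with at least 10 TPM and 2 or more annotated transcripts. The leading transcript was the same in both libraries for 34 and in both tables for 38, and in 15 it held 90% or more in both libraries. Ndufv3, which has a short and a long protein form, had 97.0% of its TPM in the short transcript Ndufv3-202 (493 bases) in each library. Ndufa4 was split between 2 coding transcripts, Ndufa4-205 with 53.2 and 51.2% and Ndufa4-204 with 46.0 and 48.0%.

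The leading transcript is the one with the highest mean share over both libraries. In 8 of the 39 (20.5%) it was not annotated as protein coding, beside 10% of 6780 such genes in all. Taken on 1 library alone, the count was 6 in replicate 1 and 8 in replicate 2. In the second transcript table it was 7 of 39 (17.9%), beside 10.9%, and 7 were the same genes. The 8 were Ndufa3, Ndufa5, Ndufab1, Ndufa10, Ndufs4, Ndufb4, Ndufaf8 and Ndufaf4. For Ndufa3 it was Ndufa3-204, a transcript of 343 bases annotated as a target of nonsense-mediated decay, with 72.8 and 77.2% (59.2 and 61.9% in the second table). For Ndufa5 it was the processed transcript Ndufa5-204, 453 bases, with 73.6 and 71.6% (50.8 and 44.4%, where the coding Ndufa5-202 had 45.2% in replicate 2).

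Retained intron transcripts led by the mean share in 4 of them. They were Ndufab1-205 with 38.9 and 44.8%, Ndufa10-204 with 35.8 and 42.3%, Ndufaf8-203 with 55.8 and 62.9%, and Ndufb4-202 with 38.0 and 63.5%. In replicate 1 a coding transcript led in 2 of the 4: Ndufa10-201 with 36.4% and Ndufb4-201 with 61.8%. Ndufb4 also differed between tables: the second gave Ndufb4-202 21.7 and 19.4%, and the coding transcript led there. In the remaining pair, Ndufs4-202, a decay target, held 43.8 and 39.3%, and Ndufaf4-202, a processed transcript, 39.9 and 42.7%. In replicate 2 the coding Ndufaf4-203 led that gene with 47.9%. In the first table, under 50% of the TPM lay in coding transcripts in both libraries for 7 of the 39 (17.9%), beside 8.1% of all such genes. The median share in coding transcripts there was 95% and 93.3%, beside 96.9% in each library for all such genes. Part of the 7 did not hold in the second table, where coding transcripts had 53.9 and 50.7% for Ndufc1. There Ndufa5 had 49.1 and 55.6%, and Ndufaf8 had 51.7 and 47.6%. Short transcripts weigh more in TPM than in counts, and the part of transcript and fragment length in these shares was not tested.

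**Figure D5:**
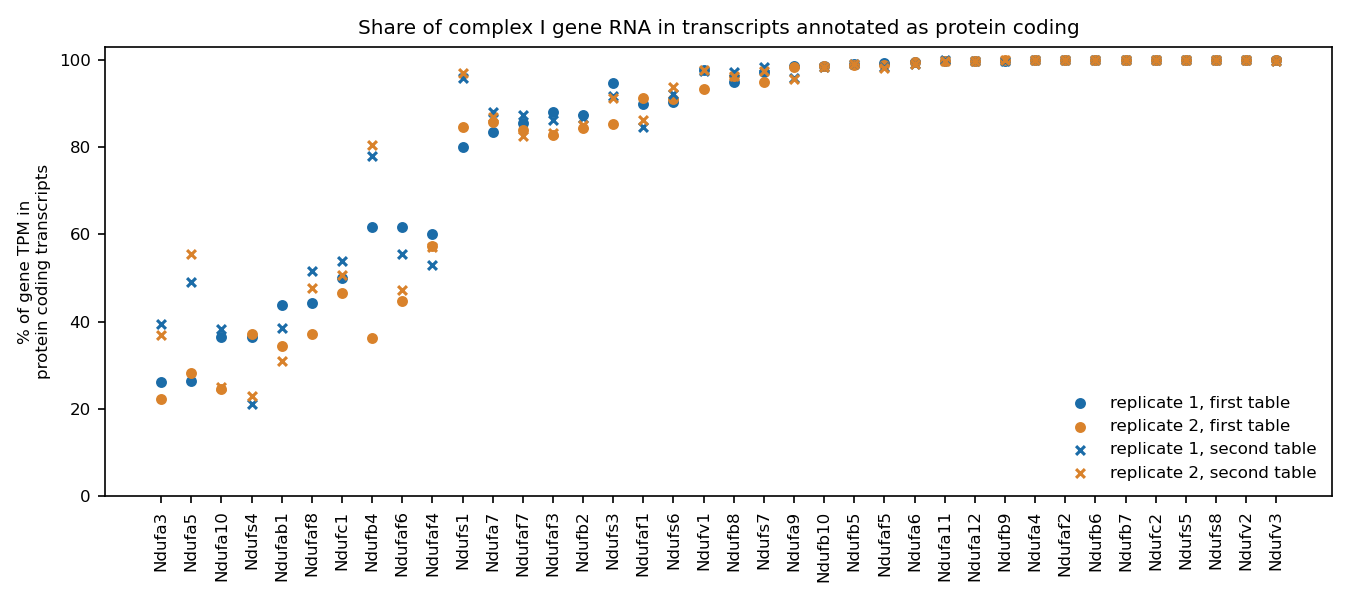
Percent of each gene's TPM in transcripts annotated as protein coding for 38 of the 39 complex I genes, in both libraries (colours) and both transcript tables (circles, first; crosses, second). Ndufa3 lies lowest in the first table at 26.1 and 22.2%, and Ndufb4 shows a wide gap between the tables in replicate 2, 36.3 against 80.5%.

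Ndufb4, a distal arm subunit, cannot be fully told apart from Ndufb4c. Ndufb4c is a single-exon locus of 390 bases (chr15:73809507-73809896, minus strand, mm10), annotated as a processed pseudogene in GENCODE M21 and as protein coding in RefSeq GRCm38.p6. Its transcript matched bases 95 to 484 of Ndufb4-201 with 0 differences, which is the whole annotated coding sequence of Ndufb4. The shared sequence is shown because the split of reads between the loci rests on it. Its first 300 bases are printed, with the start codon in capitals. In the whole sequence the first stop in frame is codon 130, the last.
Ndufb4c and the coding sequence of Ndufb4, first 300 bases: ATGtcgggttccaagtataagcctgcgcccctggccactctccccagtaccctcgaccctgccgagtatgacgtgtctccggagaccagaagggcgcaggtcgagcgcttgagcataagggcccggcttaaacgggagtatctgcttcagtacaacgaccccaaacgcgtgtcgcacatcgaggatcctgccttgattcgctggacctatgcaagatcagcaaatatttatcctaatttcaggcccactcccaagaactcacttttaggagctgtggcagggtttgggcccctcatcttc

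None of the 31-base words of Ndufb4c (0.0%) were absent from other genes' transcripts, against 80.9% of those of Ndufb4. The gene tables gave Ndufb4 5749 and 2603 counts (log2 ratio -0.32, -0.38 to -0.25) and Ndufb4c 8020 and 5131 (0.18, 0.13 to 0.23). In the gene tables the 2 loci thus moved in opposite directions, but the intervals do not cover error in the split of shared reads. The second transcript table gave Ndufb4 11152.3 and 7295.7 counts and Ndufb4c 10508.4 and 7513.9. Their sum in the gene tables, 13769 and 7734 counts, had a log2 ratio of -0.01 (-0.05 to 0.03). The summed level was 1107 and 1185 TPM, 1146.0 ± 54.8, in TPM above every distal arm subunit but Ndufb9. That place rests on the split of the reads. Those given to Ndufb4c were divided by an effective length of 228 and 267 bases, those given to Ndufb4 by 615 and 526. In counts the sum was also below Ndufb8 (17690 and 11524) and Ndufb10 (16989 and 10174). The copy's share of the counts was 58.2 and 66.3% by the gene tables, but 48.5 and 50.7% by the second transcript table. Ndufb4c was also the 1 member whose TPM differed by 1.5-fold or more between the quantifications in both libraries (875 and 942 against 542 and 624), beside 3.94% of all genes, and none of 47 differed by 2-fold, beside 2.52%.

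Of the 46 coding members, 27 had 95% or more of their 31-base words in no other gene, and 6 had under 75%: Ndufaf2, Ndufb6, Ndufa13, Ndufb11, Ndufs5 and Ndufs3. Ndufaf2 had the lowest share, 34.88%, and overlaps the noncoding B230220B15Rik on the opposite strand, listed at 0.01 TPM. Opposite-strand overlaps with an abundant gene were those of Ndufs1 with Eef1b2, a translation elongation factor at 456 TPM, and of Ndufs6 with Mrpl36, a mitochondrial ribosomal protein at 93.2 TPM. No source used here says whether counting used strand, so reads from such pairs may not be told apart.

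Transcription of many respiratory genes is known to use the factors NRF1, GABP of the ETS family, and YY1, and promoters without a TATA box. Their letters were searched on both strands in RefSeq promoters (GRCm38.p6, 250 bases before to 50 after the annotated start), which were found for 40 of the 46 coding members. The NRF1 letters, GCGCA and GCGC with any 1 base between, occurred in 9 of the 40 (22.5%), beside 7.17% of 17492 coding genes and 11.5% of the 9750 detected ones. The YY1 letters ATGGCGGC occurred in 7 (17.5%, beside 3.5% and 5.63%). The ETS letters CCGGAAG occurred in 6 (15%, beside 12.9% and 19.7%) and TATAAA in 4 (10%, beside 14.8% and 8.55%). A match describes letters in a window and is not a site, and these data hold no measure of binding.

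The NRF1 matches are shown for the 3 genes that hold the fully palindromic form and for Ndufb4, which held 3 matches. Capitals mark the match, each window reads along the gene's own strand, and positions count from 0 at the annotated start.
Ndufa11, at -60 to -51 (chr17:56717692-56717721, plus strand): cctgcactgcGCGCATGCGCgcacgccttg
Ndufaf4, at -113 to -104 (chr4:24897960-24897989, plus strand): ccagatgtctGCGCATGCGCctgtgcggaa
Ndufaf5, at 16 to 25 (chr2:140170652-140170681, plus strand): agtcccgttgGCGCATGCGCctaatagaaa
Ndufb4, at -191 to -182 (chr16:37654540-37654569, minus strand): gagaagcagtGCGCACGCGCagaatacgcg
Ndufb4, at -79 to -70 (chr16:37654428-37654457, minus strand): ccttgtgcgcGCGCAGGCGCacttcctgag
Ndufb4, at -22 to -13 (chr16:37654371-37654400, minus strand): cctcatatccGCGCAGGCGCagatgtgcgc

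The YY1 letters lay after the annotated start in 6 of the 7 genes, and aag stood before them in 5. These letters hold an ATG. The windows of 1 core and 1 assembly gene show the shared stretch.
Ndufs7, at 27 to 34 (chr10:80249465-80249494, plus strand): ccgaggccaagATGGCGGCgctggcgggtg
Ndufaf8, at 13 to 20 (chr11:120098936-120098965, plus strand): cagggcccaagATGGCGGCgccctcgagag

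Levels of genes with and without a match overlapped. The median was 380 TPM for the 9 members with the NRF1 letters and 487 for those without, and 344 and 487 for the YY1 letters. Ndufa5 at 1163 TPM and Ndufaf4 at 24.2 TPM both had an NRF1 match.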

How the data were processed

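Members, lists and tests were chosen with earlier results of these data known. Each library had a gene table and 2 transcript tables on mm10 with GENCODE M21, per the deposited notes. The deposited expected counts are estimated fragments per gene or transcript, not normalized. The authors deposited TPM scaled to the same sum in each library, and the deposited percent is a transcript's share of its gene's TPM, per the file headers. Aligner, quantifier and strand use: not given in the sources used here. Numeric rows (26248) and spike-ins (97) were left out and held 1.73e-05 and 3.35e-05 percent of counts.

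Expected counts were rounded and scaled by TMM (edgeR 4.0.16 in R 4.3.3). Ratios have 95% Clopper-Pearson intervals for counting error (scipy 1.17.1), and no p-value was computed because there is 1 group. The fragments carried no molecular identifiers, and the intervals treat each fragment as independent. The calls were tested on simulated data with known changes. The simulated counts held counting error only, so that test does not cover other variation between libraries. Shared sequence was measured with 31-base words over GENCODE M21 transcripts. Alternatives were DESeq2 1.42.0 size factors, total counts, other filters and folds, the second transcript table, a lowess trend on GC content and length (statsmodels 0.14.6), and leaving out a library. The level of 100 CPM, the length of 1200 bases and the list without pseudogenes were chosen after seeing the data. Some results are not reported here. Apart from those, values per library are printed for the core and for the 2 highest and the lowest gene of each role group. The same holds for genes called apart, undetected, or differing between quantifications, and for the Ndufa4 pair. Other genes were named for a role or a feature after their values were seen.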

Additional observations from a re-analysis of the deposited data

Results flagged for a closer look

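Both symbols that the rule leaves out for their -ps ending had counts above the 3 that a count of 0 allows. Ndufb1-ps (chromosome 12, 101968090 to 101977068) is annotated as a bidirectional promoter noncoding RNA in GENCODE M21, while RefSeq names the locus Ndufb1 and protein coding, the gene of a small membrane arm subunit. It had 10086 and 6065 counts and 486 and 530.0 TPM, a mean of 508 ± 31.2 TPM (SD, n = 2), which lies within the range of the distal arm subunits. Its log2 ratio between the libraries was 0.09 (0.05 to 0.14).

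Ndufab1-ps, a processed pseudogene on chromosome 7, had 27 and 23 counts and a mean of 2.73 ± 0.771 TPM. In the second transcript table it had 0.0936 and 0.196 TPM. Only 15.98% of its 31-base words occurred in no other gene. The part of reads from Ndufab1 in its level was not tested.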

How the results depend on the processing

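No paired analysis was possible because there is 1 group and its replicate numbers have no partner. With the second transcript table the median fell to 360 TPM for all members, 300 for the core, 599 for the matrix arm, 640 for the proximal and 403 for the distal arm, 47 for the Nduf-named and 28.2 for the other assembly factors, 597 for complex III, 1719.3 for complex IV and 755 for ATP synthase. Without replicate 2 the median was 933 TPM for the mitochondrially encoded subunits and 6.39 for the biogenesis regulators. The leading transcript was then not coding in 6 members. Without replicate 1 these values were 1525.7 TPM, 4.8 TPM and 8 members. The median of all members was 472 TPM without those under 1 TPM and 466 without processed pseudogenes, against 460. A fold of 2 called 0 members in place of 1 (at that fold 11% of all genes were called), and a fold of 1.5 put 1 member apart between quantifications. Total counts put the median log2 ratio of members at 0.22 and of all genes at 0.09. With 2 libraries from 1 group, these values describe the libraries and set no limit on animals.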
